A study of Mus musculus with 2 samples.

Results

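The genes described here encode 10 proteins that hepatocytes secrete into blood plasma: Alb, Afp, Apoa1, Apoa2, Apob, Ttr, Serpina1a, Ahsg, Fgb and Trf. They were chosen by symbol, matched to Ensembl identifiers, and all 10 were found among 37820 genes of a gene table and among 28009 genes obtained by summing a transcript table. The study profiled polyadenylated RNA of haematopoietic stem cells (HSCs) in order to compare the fetal with the adult stage. Per the labels, adult HSCs came from bone marrow of B6129SF1 mice at 6 to 8 weeks of age and are described by 2 samples, while fetal HSCs were sorted from embryonic day 14.5 liver. No genetic change or treatment is given for either group, and fetal samples were not analysed here as separate entries. Both tables have 2 value columns, FL for fetal liver and BM for bone marrow. All values are FPKM, a fragment count scaled to feature length and library size. The columns carry no replicate number and were read as the authors' means, so no spread between libraries and no test can be given. "Higher" and "lower" therefore describe these columns only.

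Hepatocytes make most of the proteins of blood plasma. In the fetus the liver is also the main site of blood formation, and HSCs there divide among immature hepatocytes, macrophages, endothelium and maturing red cells. Alb and Afp are neighbouring genes of the albumin family: alpha-fetoprotein, the product of Afp, is abundant in fetal plasma, and Afp is largely silenced in the liver after birth, when albumin becomes the main plasma protein. Liver-enriched transcription factors, among them HNF1 proteins, bind the promoters of many such genes.

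The promoters of Alb, Afp and Serpina1a are printed because they show the same short HNF1-type sequence at different distances from the start, in genes whose levels differed between the columns. The sequences are RefSeq's, on build GRCm38.p6, and cover the 250 bases before the annotated start, 5′ to 3′ on the gene's own strand. Capitals mark GTTAAT, 1 arm of the palindromic recognition sequence of HNF1, searched on both strands.
Alb, chr5:90460620-90460869, plus strand: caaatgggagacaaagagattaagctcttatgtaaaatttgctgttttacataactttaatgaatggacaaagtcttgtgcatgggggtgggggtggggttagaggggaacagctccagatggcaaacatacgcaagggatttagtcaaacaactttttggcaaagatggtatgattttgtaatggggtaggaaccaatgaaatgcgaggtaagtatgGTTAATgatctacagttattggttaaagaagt
Afp, chr5:90490464-90490713, plus strand: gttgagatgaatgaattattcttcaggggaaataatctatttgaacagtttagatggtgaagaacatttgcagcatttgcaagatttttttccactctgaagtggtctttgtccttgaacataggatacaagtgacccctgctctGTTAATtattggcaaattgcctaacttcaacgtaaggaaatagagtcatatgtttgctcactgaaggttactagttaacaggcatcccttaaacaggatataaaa
Serpina1a, chr12:103863620-103863869, minus strand: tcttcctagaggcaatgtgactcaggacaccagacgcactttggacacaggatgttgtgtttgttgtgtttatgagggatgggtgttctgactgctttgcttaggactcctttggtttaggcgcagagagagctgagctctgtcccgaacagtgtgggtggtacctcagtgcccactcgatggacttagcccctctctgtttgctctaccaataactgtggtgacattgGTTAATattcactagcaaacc

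The sequence began 32 bases before the start of Alb, 105 bases before that of Afp and 21 bases before that of Serpina1a. Of the 8 members whose window was examined (all but Ttr and Trf), 4 held it: these genes and Fgb. It occurred in 6.43% of all 32851 promoter windows of this length. The windows of Apoa1, Apoa2, Apob and Ahsg did not contain these letters. A match describes the letters only.

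The columns of the tables did not pair by their headers, and the members show this one by one. Alb was at 6.74 FPKM in gene-table BM and at 6.46 FPKM in transcript-table FL, but at 0.0190 FPKM in transcript-table BM. The ratio of the gene-table BM value to the transcript-table FL value lay within 10% of the median over 3520 single-transcript genes (1.05) for 9 of 10 members. It was 1.04 for Alb, Afp, Ahsg and Apob, and 1.01 for Trf. The exception was Serpina1a, at 0.467. Over all of those genes 74.8% lay within 10% of that median, against 17.0% when the columns headed BM were paired. Each value below is therefore given by its table and header. The FL column of the gene table stood apart in another way: the summed FPKM of 11 endothelial markers was 2802 there and 197 to 222 in the other columns, and that of 10 stromal markers was 776 against 10.9 to 13.5.

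**Figure D1:**
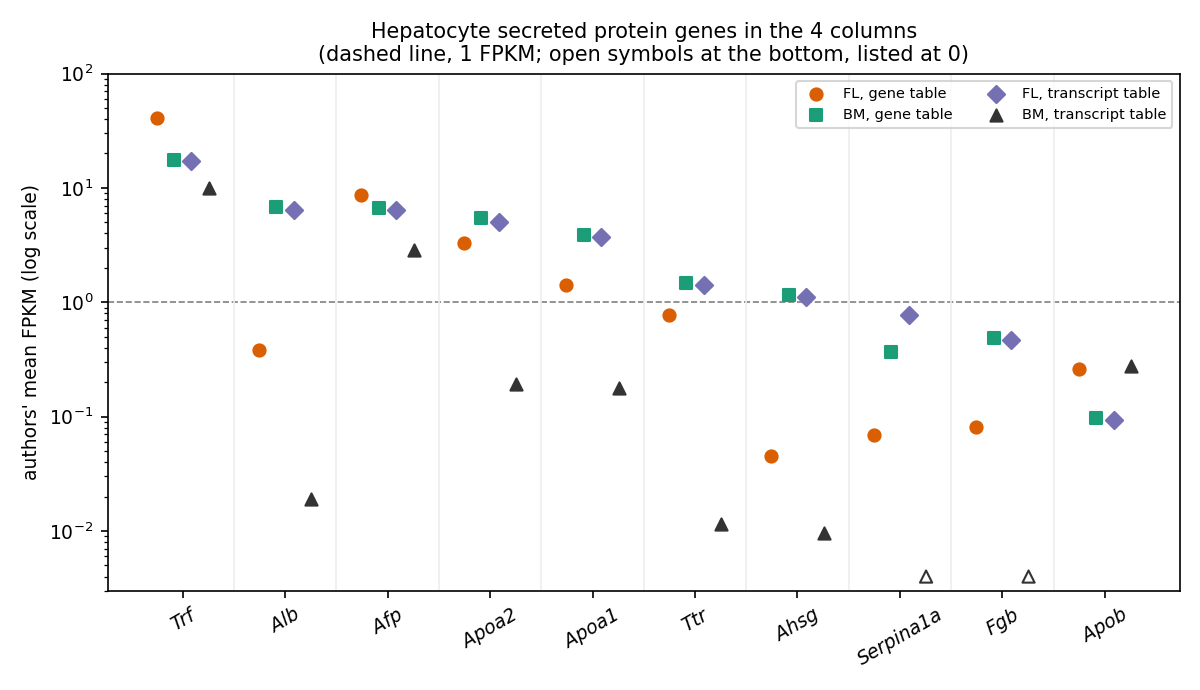
FPKM on a log scale (y axis) of each of the 10 genes (x axis) in the FL and BM columns of both tables. Each symbol is a column value, read as the authors' mean, and open symbols mark genes listed at 0. The squares and diamonds lie close together for every gene but Serpina1a, and the triangles (BM, transcript table) are above 1 FPKM for Trf and Afp alone.

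Transcript-table BM, adult HSCs by its header, held almost no RNA of most of these genes. Serpina1a, which encodes the protease inhibitor alpha-1-antitrypsin, and Fgb, the fibrinogen beta chain gene, were listed at 0. Ahsg, which encodes the mineral-binding glycoprotein fetuin-A, was at 0.00953 FPKM, and Ttr, which encodes the thyroxine and retinol carrier transthyretin, at 0.0115 FPKM. Trf, the gene of the iron carrier transferrin, was at 9.99 FPKM and Afp at 2.89 FPKM, and these were the 2 of 10 members at 1 FPKM or more, a level that 41.6% of all genes reached. Together they made up 94.9% of the members' summed 13.6 FPKM. Gene-table BM is headed as the same adult cells, yet 7 of 10 members were at 1 FPKM or more in it, where 32.3% of all genes were. Its values lie close to those of transcript-table FL for all members but Serpina1a, as given above. It therefore cannot be read as a second measure of the adult level, and the headers leave that level unsettled.

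In transcript-table FL 7 of 10 members were at 1 FPKM or more, where 40.9% of all genes were. The order was Trf at 17.3 FPKM, Alb at 6.46, Afp at 6.44, Apoa2 at 5.07, Apoa1 at 3.70, Ttr at 1.41, Ahsg at 1.11, Serpina1a at 0.781, Fgb at 0.467 and Apob at 0.0929 FPKM. Trf lay at percentile 82.1 of all genes and Alb at percentile 71.5, so none was among the most abundant RNAs. The members summed to 42.8 FPKM, which is 64.5 ppm of the column's total FPKM. That share was 22.9 ppm in the BM column of the same table. Without Trf and Afp it was 28.8 ppm in FL and 1.17 ppm in BM.

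Compared within the transcript table, 6 of the 7 members at 1 FPKM or more in either column were at least 2-fold lower in BM, where 8.82% of 12220 such genes were. The fold was taken from log2((BM + 0.1)/(FL + 0.1)), relative to the median gene, and this relative log2 ratio had a median of -3.76 over the 7 members and 0.02 over all such genes. The pseudocount of 0.1 FPKM understates the difference of genes as low as these. Alb had the lowest ratio (-5.79), and Apoa2 (-4.14), Apoa1 (-3.78), Ttr (-3.76) and Ahsg (-3.47) lay close together. Their order turned with the pseudocount: with 0.01 FPKM Ttr (-6.04) and Ahsg (-5.85) lay below Apoa2 (-4.65) and Apoa1 (-4.31). Afp, at -1.13, lay just past the 2-fold line and was inside it when the columns were scaled to equal totals (-0.97). Trf was within 2-fold (-0.79). The members below 1 FPKM in both columns were Serpina1a (-3.14), Fgb (-2.51) and Apob (0.96). Some marker lists of other cell types were lower in the same column, with summed FPKM of 271 in FL and 6.60 in BM for 12 macrophage genes, 830 and 40.5 for 12 erythroid genes, and 631 and 219 for 12 neutrophil and monocyte genes. Of those expressed, 11 of 11 macrophage, 11 of 11 erythroid and 9 of 12 neutrophil and monocyte genes were at least 2-fold lower in BM. Other lists were not: of 11 endothelial genes 4 were lower and 0 higher (sums of 197 in FL and 216 in BM), of 3 expressed stromal genes 0 were lower and 2 higher (10.9 and 13.5), and of 6 expressed hepatoblast and biliary genes 1 was lower and 5 were higher. Whether hepatocyte RNA carried along with the sorted cells accounts for the members' levels was not tested. In such pooled RNA, fewer cells of a type and less RNA per cell cannot be told apart.

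The lowest values were read as whole fragments. Across single-transcript genes of more than 800 nt, the product of FPKM and transcript length (less 250 nt) piled up at multiples of 1 step. The 250 nt, which allows for fragment length, was chosen among the values tried because it gave the densest pile in gene-table BM. Between 0.5 and 4.5 steps, 60.1% of genes in transcript-table BM and 61.6% in transcript-table FL lay within 0.15 steps of a whole number. In the gene table these shares were 82.2% for BM and 68.2% for FL. An even spread would give 30%, but each column's step was taken from the densest pile of these same products, searched within a fixed range. That comparison is therefore not an independent check, and a step outside the range would have been missed. Whether 1 step is 1 fragment was not tested. Taking 1 step as 1 fragment gives approximate fragment numbers for Alb, Afp, Ahsg and Ttr, each of which has 1 linked transcript. The numbers rest on transcript lengths of a later annotation, and their intervals are exact 95% Poisson intervals that cover counting error only.

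**Figure D2:**
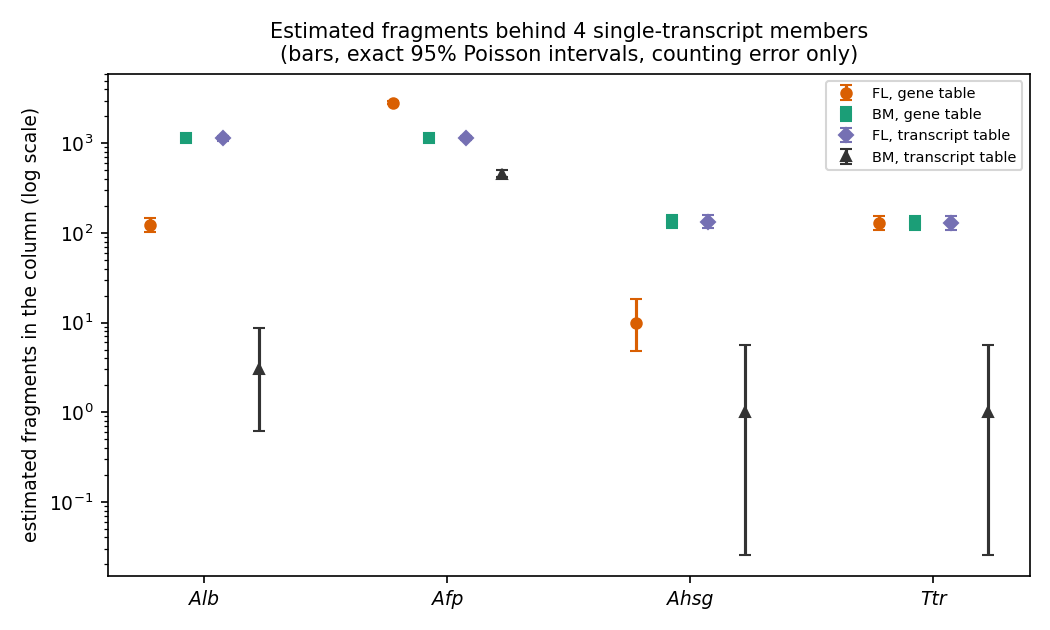
Estimated fragments on a log scale (y axis) behind Alb, Afp, Ahsg and Ttr (x axis) in each column, rounded to whole fragments, with exact 95% Poisson intervals as bars. In transcript-table BM Alb, Ahsg and Ttr sit at 3, 1 and 1 fragments, and Afp at 459.

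On this reading the Alb value of transcript-table BM rested on about 3 fragments (0.619 to 8.77), and those of Ahsg and Ttr on about 1 fragment each (0.0253 to 5.57). In the FL column the same genes had about 1132 (1067 to 1200), 134 (112 to 159) and 129 (108 to 153) fragments. The ratio of FL to BM was 336-fold for Alb, with an exact 95% interval from counting error of 115 to 1633. For Ahsg it was 119-fold (21.1 to 4752) and for Ttr 115-fold (20.3 to 4576), so their order in size was not detectable at this depth. Afp differed: about 459 fragments (418 to 503) stood in BM and 1147 (1082 to 1215) in FL, a ratio of 2.23 (2.0 to 2.49). These intervals leave out the spread between libraries, which the tables do not give.

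The balance between Afp and Alb therefore differed between columns. Afp was at 0.997 times the level of Alb in transcript-table FL and in gene-table BM. It was at 152 times the level of Alb in transcript-table BM. In gene-table FL, Afp was at 8.69 FPKM and Alb at 0.381 FPKM, a ratio of 22.8, and about 2848 fragments (2744 to 2955) stood behind Afp against 123 (102 to 147) behind Alb. Afp thus ranked second among the members in 2 columns in which Alb ranked sixth. No exact 75-base stretch of the Alb or Afp transcript recurs in a transcript of another gene of GENCODE M21. Inexact matches were not searched, and whether reads of one were assigned to the other was not tested.

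**Figure D3:**
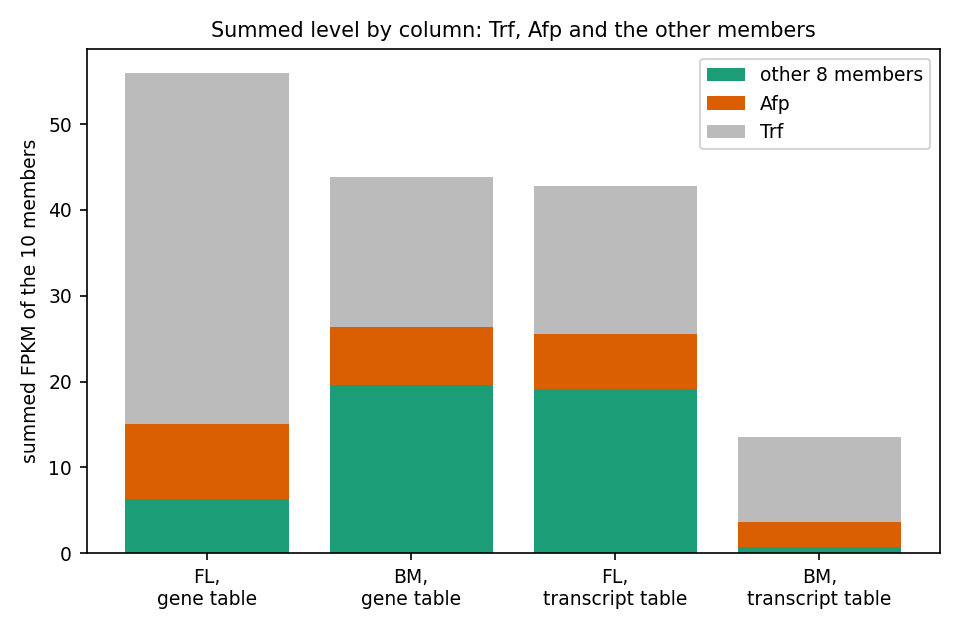
Summed FPKM of the 10 genes (y axis, from 0) in each column (x axis), divided into Trf, Afp and the other 8 members. Trf makes up 73.1% of the sum in gene-table FL and 73.6% in transcript-table BM, and the other 8 members are smallest in the latter, at 0.690 FPKM.

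The apolipoprotein members did not behave alike. Apoa1 and Apoa2, the major protein genes of high-density lipoprotein, were at 3.70 and 5.07 FPKM in transcript-table FL and at 0.178 and 0.194 FPKM in BM. In the gene table they were at 1.43 and 3.29 FPKM in FL and at 3.88 and 5.44 FPKM in BM. Both were thus lowest in transcript-table BM. Of the Apoa2 sum, Apoa2-201 made up 58.8% in FL and close to all in BM, and the remainder in FL lay on Apoa2-203 (27.3%) and Apoa2-204 (13.9%). On the fragment scale above, the Apoa2 sum rested on about 119 fragments in FL but about 4 in BM (1.09 to 10.2). The split in BM is therefore too thinly covered to compare with that in FL.

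Apob, which encodes the scaffold protein of very-low-density and low-density lipoprotein, ran the other way. It was at 0.0929 (transcript-table FL) and 0.278 FPKM (transcript-table BM), and at 0.262 and 0.0970 FPKM in FL and BM of the gene table. The transcripts behind these sums differed. In FL 88.8% lay on Apob-203, a model of 2174 nt, and 11.2% on Apob-201, of 13369 nt, whereas in BM Apob-201 held 39.1%, Apob-204 31.9% and Apob-203 29.0%. On the fragment scale above, this amounts to about 29 fragments (19.4 to 41.6) in FL and 145 (122 to 171) in BM. Apob was thus the member whose level was higher in transcript-table BM, at under 1 FPKM in every column. The microsomal transfer protein gene Mttp, whose product loads lipid onto apolipoprotein B, was at 1.14 FPKM in FL against 0.857 FPKM in BM.

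Trf was the most abundant member in every column, at 40.9 and 17.5 FPKM in FL and BM of the gene table and 17.3 and 9.99 FPKM in FL and BM of the transcript table. Trf-201 held 81.3% of its FL sum and 72.5% of its BM sum in the transcript table, and the short model Trf-204 held 1.83% and 15%. Of the 75-base windows of Trf-201, 78.6% also occur in Gm20425, an overlapping gene model at 10.4 FPKM in FL against 4.98 FPKM in BM. The Trf values are uncertain to that extent. Transferrin receptor genes were detected in FL and BM of the transcript table, of which FL also held more RNA of erythroid marker genes, as given above, and what part erythroid cells have in these levels was not tested. Tfrc, the general uptake receptor, was at 42.8 FPKM in FL against 11.8 FPKM in BM, and Tfr2, an iron-sensing receptor shared by liver and erythroid cells, at 30.4 and 47.5 FPKM.

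Serpina1a belongs to a cluster of near-identical genes, and 69.6% of its 75-base windows recur in other genes, most of them in Serpina1c (62.8% of windows). Its separate value is therefore uncertain. Serpina1b, another copy, was at 1.24 FPKM in transcript-table FL, above Serpina1a at 0.781 FPKM. The 5 copies summed to 2.43 FPKM there and to 1.43 FPKM in gene-table BM, the columns that matched for the other members. All 5 were listed at 0 in transcript-table BM. Fgb has partner chains encoded by Fga and Fgg, which were at 0.144 and 0.532 FPKM in transcript-table FL, against 0.467 FPKM for Fgb, and were listed at 0 in BM as well. In the gene table Serpina1a was at 0.0696 FPKM under FL and 0.365 FPKM under BM, and Fgb at 0.0817 and 0.488 FPKM, so both stayed below 1 FPKM in all columns.

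The gene table gave another picture of the same genes. In its FL column 4 of 10 members were at 1 FPKM or more (34.5% of all genes), and in its BM column 7 were (32.3%). Of 7 members at that level in either column, 3 were at least 2-fold higher in BM (12.3% of 13834 genes): Alb (3.59), Ahsg (2.88) and Apoa1 (1.14 on the relative log2 scale). With a pseudocount of 1 FPKM only Alb stayed past 2-fold (2.27), and Ahsg (0.83) and Apoa1 (0.79) did not. Trf was lower (-1.46), as were 23.6% of all such genes, and Apoa2 (0.47), Ttr (0.61) and Afp (-0.61) were within 2-fold. The median was 0.61 for the members and -0.07 for all such genes. These ratios set the column that matches fetal liver values of the other table against the column rich in endothelial and stromal markers, so which stages they compare cannot be told from the headers.

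Ahsg and Alb had the widest gap between those columns. Alb was at 0.381 FPKM in FL against 6.74 FPKM in BM, a ratio of 17.7, and Ahsg at 0.0453 and 1.16 FPKM, a ratio of 25.6 that rested on about 10 fragments in FL (4.80 to 18.4). Ttr was at 0.771 and 1.47 FPKM with about 130 fragments in each. Among macrophage markers, Cd5l, Marco and Clec4f, which mark tissue macrophages including those of liver, were at 1.34, 0.372 and 0.0962 FPKM in FL and at 52.1, 28.4 and 8.86 FPKM in BM. They are named after their values were seen. Most of the macrophage list ran the opposite way in these columns. Of 11 expressed genes, 7 were at least 2-fold lower in BM and 4 higher (23.6% and 12.3% of all such genes). The 12 listed genes summed to 711 FPKM in FL and 285 FPKM in BM. C1qb was at 206 FPKM in FL against 55.8 FPKM in BM, and C1qc at 142 and 43.7 FPKM. What part other cell types have in these levels was not tested.

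Other plasma protein genes were mostly near 0. The 82 genes examined came from lists of apolipoproteins, clotting factors, protease inhibitors, carriers, acute phase proteins and complement, with the members left out. Of these, 16 were at 1 FPKM or more in transcript-table FL and 7 in BM (40.9% and 41.6% of all genes). In BM 52 were listed at 0. The share of all genes at 0 is not given, but 44.8% of all genes lay below the Ahsg value of 0.00953 FPKM in that column. Of 17 such genes at 1 FPKM or more in either column, 10 were at least 2-fold lower in BM (8.82% of all such genes) and 1 was higher (13.3%), the complement protease gene C1ra. Their median relative log2 ratio was -2.96. In the gene table such genes numbered 21, of which 7 were lower in BM (23.6% of all such genes), 5 higher (12.3%) and 9 within 2-fold, with a median of -0.39. Among clotting genes, F10 was at 5.30 and 4.98 FPKM, Pros1 at 2.43 and 4.84 FPKM, F5 at 2.32 and 3.42 FPKM and Kng1 at 0.364 FPKM and 0 in FL and BM of the transcript table. Hp, which encodes the haemoglobin scavenger haptoglobin, was at 5.48 FPKM in FL against 0.0534 FPKM in BM. Rbp4, the retinol carrier that circulates bound to transthyretin, was at 2.03 FPKM in FL and listed at 0 in BM, and Apoc1, an apolipoprotein gene that macrophages also express, was at 14.1 and 0.0620 FPKM. By contrast Apoe and Selenop, which many cell types express, were at 532 and 87.4 FPKM in FL and at 360 and 84.1 FPKM in BM.

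Genes that act inside hepatocytes had a median of 0.0682 FPKM in transcript-table FL, near that of the 82 other plasma protein genes (0.0634 FPKM) and below that of the members (2.55 FPKM). Of 31 enzyme and surface protein genes found in both tables, 7 were listed at 0 in all columns: Cps1 of the urea cycle, Tat, G6pc, Cyp7a1, Cyp3a11, Cyp3a16 and Slco1b2. The highest, Ass1, Tfr2, Asl and Fbp1, are not restricted to hepatocytes. Ass1 was at 68.7 (transcript-table FL) and 34.1 FPKM (transcript-table BM), and Fbp1 at 2.40 and 13.2 FPKM. Of 13 liver transcription factor genes 7 stayed under 1 FPKM in all columns. Shares of all genes at 0 or under 1 FPKM in every column are not given, so these counts describe the lists alone. Hnf4a, a central regulator of hepatocyte genes, was at 0.611 and 0.0938 FPKM in FL and BM of the transcript table and at 0.445 and 6.42 FPKM in FL and BM of the gene table; the matched columns disagreed for this gene. Of the hepatoblast and biliary genes, Dlk1, which other fetal cells share, was the one lower in transcript-table BM: it was at 89.7 (transcript-table FL) and 2.17 FPKM (transcript-table BM), and at 125 and 92.6 FPKM in FL and BM of the gene table. Krt18, Krt8, Krt7, Epcam and Spp1 were at least 2-fold higher in transcript-table BM, with Krt18, a keratin gene of simple epithelia, at 44.6 FPKM against 14.0 FPKM in FL.

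Visceral endoderm of the yolk sac expresses several of the same secreted proteins. Its markers Sox17, Gata6 and Gata4, which endothelial or stromal cells can express too, were at 37.1, 11.5 and 5.59 FPKM in gene-table FL. Cubn and Amn, the receptor genes that define its absorptive function, were at 0.440 and 0.0865 FPKM there. In BM of the transcript table none of the 7 markers found reached 1 FPKM, a level that 41.6% of all genes reached.

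**Figure D4:**
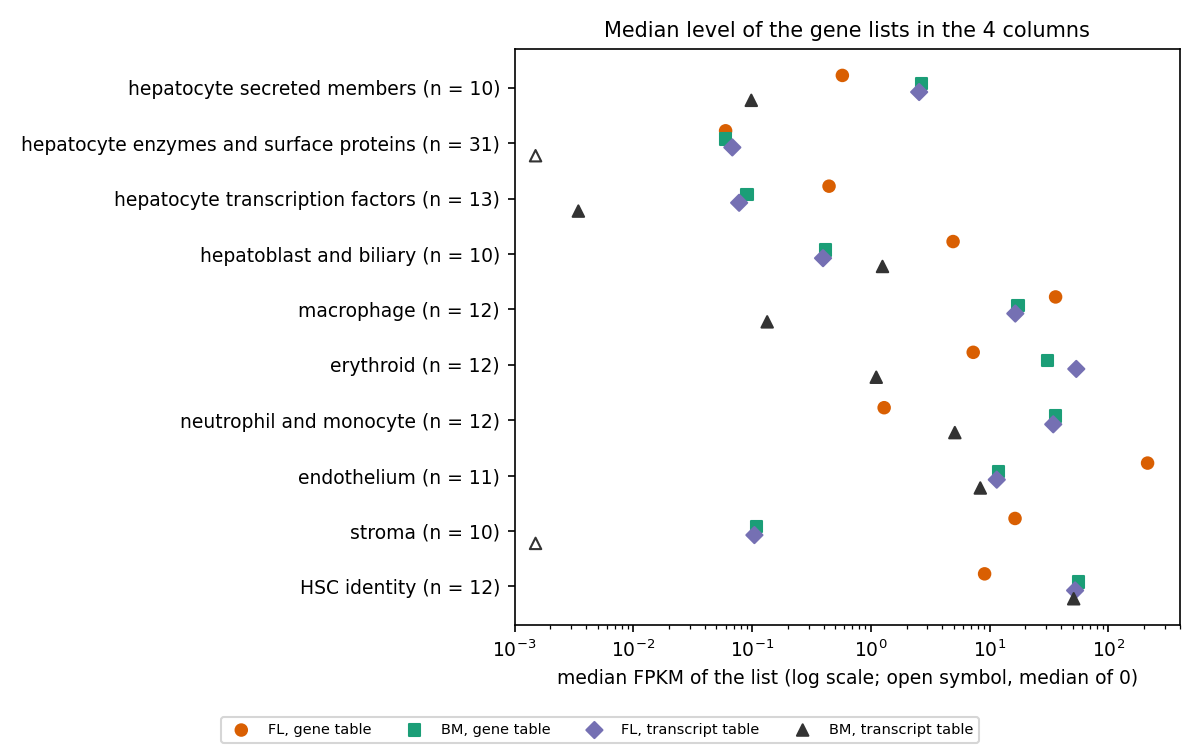
Median FPKM on a log scale (x axis) of gene lists (y axis, number of genes found in both tables) in the 4 columns; open symbols mark a median of 0. The secreted protein genes have medians of 2.55 to 2.68 FPKM in the matched columns, 0.576 FPKM in gene-table FL and 0.0985 FPKM in transcript-table BM, while HSC identity genes stay at 51.1 FPKM or more in all but FL of the gene table.

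The genes with the profile most like the members' were sought among 11205 genes outside the lists at 1 FPKM or more in transcript-table FL, by the distance between log2(FPKM + 0.1) profiles over the 4 columns, each centred on its mean, and the members' median profile. The 10 nearest were Galnt3, Slc5a11, Cldn15, Tespa1, Chrna1os, Scd1, Fam83g, Lrrc24, Hif3a and Tmem45a, at distances of 0.371 to 0.566. Galnt3, a glycosyltransferase gene, was at 1.22 (transcript-table FL) and 0.0783 FPKM (transcript-table BM). Scd1, a fatty acid desaturase gene, was at 4.54 and 0.478 FPKM. Of the members themselves, Fgb (0.794) and Apoa1 (0.881) were nearest to this profile, and Apob (3.15) and Alb (2.92) were farthest from it. A distance over 4 columns, of which one pair held nearly the same values, is a coarse measure.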

How the data were processed

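The authors deposited FPKM values per gene and per transcript, headed FL and BM. The submitters' processing notes name TopHat, Cufflinks, featureCounts, Subread, edgeR and mm9, without role, order or version, and no annotation release is named there. The labels list genomic DNA as the molecule, although their protocol describes RNA. No column carries a replicate number, so each was read as the authors' mean, with no SD, n or test. BM was assigned by its header to the adult samples and FL to fetal liver by the protocol alone. Sequencing depth is not stated; fragments were estimated as described beside the results.

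Symbols and transcript links came from GENCODE M21 by identifier (76507 of 87641 transcripts linked), and linked transcripts were summed per gene. Sums are too low where a transcript was not linked. Relative log2 ratios were centred on the median of genes with at least 1 FPKM in both columns, a shift of 0.24 in the gene table and 0.01 in the transcript table. The ratio and step calculations were tested on simulated data. Python 3.11.15, numpy 2.4.6, pandas 2.3.3, scipy 1.17.1 and matplotlib 3.10.9 were used.

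The members, gene lists and named genes were chosen with earlier results of these data known. The naming rule covered all members, the 4 highest genes of each list and up to 3 listed at 0, copies and partner chains of members, and the 10 genes of most similar profile. Marker lists of other cell types, and some further lists, are given mostly by sums and counts in place of their 4 highest genes. Genes outside the rule, among them 4 more enzyme genes listed at 0, were named after their values were seen. Alternatives were other pseudocounts, scalings, thresholds, no filter, the highest transcript, and leaving out Trf and Serpina1a.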

Additional observations from a re-analysis of the deposited data

How the results depend on the processing

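No paired analysis was possible because the columns carry no replicate number, and for the same reason no replicate could be left out. With no spread to judge by, a log2 ratio was counted as moved when it changed by more than 1.5-fold. In the transcript table the members' median log2 ratio was -1.26 with a pseudocount of 1 FPKM and -4.65 with 0.01 FPKM, since many BM values lie below the pseudocount. The count of members at least 2-fold lower in BM stayed between 5 and 8 there under the alternatives run. In the gene table that count was 1, and became 2 with no filter on low values and 0 without Trf and Serpina1a. The count of members at least 2-fold higher in BM of the gene table, examined under other settings after seeing the data, was 3, and became 1 with a pseudocount of 1 FPKM and 5 with no filter. The number of members in gene-table FL was 7 at a threshold of 0.1 FPKM and 2 at 5 FPKM. In gene-table BM and in transcript-table FL it was 4 at 5 FPKM. In transcript-table BM it was 5 at 0.1 FPKM and 1 at 5 FPKM. Shares of all genes are not given for these other settings, so the counts describe the members alone. Of 100 ratios of single members under other settings, 79 changed by less than 1.5-fold, none past 2-fold changed sign, and the 21 that moved did so under another pseudocount. The limits are the lack of replicates, the mismatch of headers between the tables, transcript lengths of a later annotation, and reads shared with Serpina1 copies and with Gm20425.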
